A study of Mus musculus with 12 samples.

Results

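Chaperonins are large ring-shaped machines that enclose an unfolded protein and let it fold inside a closed chamber. The cytosolic chaperonin, called TRiC or CCT, is a double ring in which each ring holds one copy of every one of its subunits (Tcp1, Cct2, Cct3, Cct4, Cct5, Cct6a, Cct7 and Cct8), and actin and tubulin depend on it for folding. The mitochondrial chaperonin is built from Hspd1 (HSP60) and is closed by a lid made of the co-chaperonin Hspe1 (HSP10). The 10 genes that encode these subunits, 8 of TRiC and 2 of the mitochondrial pair, were chosen by symbol and matched by Ensembl identifier among the 56748 genes of each library. All 10 passed the filter on low counts, as did 18438 genes in all.

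Expression was measured by bulk RNA-seq in 12 libraries of flow-sorted BM cells with the phenotype CD45.2+ Lin-Sca+Kit+ (LSK), a fraction rich in haemopoietic stem and multipotent progenitor cells. The donor cells came from SCLtTA/BCR-ABL (DTG) mice, in which a tetracycline-controlled transactivator under control of the SCL (Tal1) enhancer drives human BCR::ABL1 once tetracycline (TET) is withdrawn. They were carried by B6.SJL recipients (CD45.1) aged 8 to 12 weeks, which had received 2 irradiation doses of 4.25 Gy with 3 h between them and then TET for 2 weeks. In the CTRL group (n = 6, labelled normal) TET was continued, so that the same transgenes were present but repressed, and in the CML 2wk group (n = 6, labelled leukaemia) TET had been absent for 2 weeks. The donor marrow was pooled from mice of both sexes, the labels do not tie a library to a donor, and p-values measure the spread between these libraries. CTRL is labelled male and CML 2wk female, so sex and BCR::ABL1 induction cannot be told apart by the labels. The counts did not follow those labels, since Xist ranged from 3790 to 4420 CPM (counts scaled to a common library size) in CTRL and from 2180 to 3500 CPM in CML 2wk, and the Y-linked Ddx3y reached at most 24 counts in a CTRL library but 202 counts in CML 2wk replicate 2. BCR::ABL1 itself was not counted, so its induction could not be checked.

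Between 22804754 and 41832868 reads were counted on genes per CTRL library and between 16150817 and 25070105 per CML 2wk library. Each chaperonin transcript was covered by at least 1889 counts in every library, so counting error was small beside the spread between libraries. The biological coefficient of variation over all genes was 10.8% in CTRL, 32.6% in CML 2wk and 24.6% in CML 2wk without replicate 2. Mitochondrially encoded genes held 0.816 to 1.29% of the counts in CTRL and 2.26 to 2.97% in CML 2wk. Of all genes tested, 30.6% rose and 29.0% fell in CML 2wk (adjusted p under 0.05), and the marker counts here are to be read beside these shares. Of 9 LSK markers, 2 rose (22.2%) and 6 fell (66.7%). Their summed level was 2500 to 2780 CPM in CTRL and 1810 to 2270 CPM in CML 2wk. Summed markers of mast cells and basophils were at 293 to 388 CPM in CTRL and 366 to 1920 CPM in CML 2wk, and stromal markers at 71.2 to 102 and 64.8 to 887 CPM, both highest in CML 2wk replicate 2. Of the 7 mast cell and basophil markers, 4 (Mcpt8, Cpa3, Tpsb2 and Fcer1a) were above every CTRL library in all CML 2wk libraries. That order held for 17.0% of all genes tested. Gata2, a large part of the CTRL sum, fell from a mean of 219.6 CPM to 102.6 CPM. The 8 neutrophil markers, summed to 2190 to 4480 CPM in CTRL and 2360 to 6530 CPM in CML 2wk, split: 3 of primary granules rose (Elane, Mpo and Prtn3) and 4 fell (S100a9, Camp, Ngp and Ltf), with a median of -1.47. The groups overlapped for Mpo and for each of the 4 that fell. These 4 were scattered in CTRL, where Ngp ran from 16.64 to 528.5 CPM. The monocyte markers summed to 113 to 152 CPM and 253 to 464 CPM, a rise carried by Ccr2 (74.65 CPM in CTRL and 271.8 CPM in CML 2wk, means), while of the 6 tested of 7 only Ccr2 and Cd14 rose, Cx3cr1 fell and the median was -0.03. All 6 erythroid markers fell, from a sum of 84.3 to 161 CPM to one of 9.6 to 35.3 CPM. B cell markers (30.3 to 107 CPM against 26.3 to 81.4 CPM) and T and NK cell markers (70.2 to 95.3 CPM against 85.8 to 190 CPM) overlapped between the groups. Of the 5 T and NK cell markers tested, 2 rose (40.0%) and 0 fell. Nkg7 made up most of their sum (means 82.66 CPM in CTRL and 121.1 CPM in CML 2wk). Pdgfrb likewise made up most of the stromal sum in CTRL (mean 76.77 CPM). No marker was at 0 in every library, and the part of cell composition in the values below was not tested.

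The genes of the mitochondrial pair lie head to head on chromosome 1, and of the 5 motifs searched for, the heat shock element was the one found for both and for no TRiC gene. Its sequence is shown because it lies in the promoter windows of both genes. All 30 bases shown also lie in annotated untranslated exon sequence (UTR), so the stretch is not outside annotated transcripts. RefSeq promoter windows (250 bases before to 50 bases after a start site, build GRCm38.p6) were found for 9 of the 10 genes, in 12 windows; Cct4 had none. The sequence lies at chr1:55088053-55088082 on the plus strand, with the run of alternating TTC and GAA repeats that make up a heat shock element in capitals:
Hspe1 and Hspd1: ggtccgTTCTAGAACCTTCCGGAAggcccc
The capitals lie from 89 to 72 bases upstream of the Hspe1 start. Of the annotated Hspd1 starts on the minus strand, one lies 216 bases upstream of the Hspe1 start, beyond the element, and the other 95 bases inside Hspe1. The pattern searched was a run of at least 3 such repeats, alternating and each separated by any 2 bases, on either strand. It was present in 0.603% of the 32851 windows of all genes and in no window of Tcp1, Cct2, Cct3, Cct5, Cct6a, Cct7 or Cct8.

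For comparison, the 150 bases upstream of 2 TRiC genes are shown, those whose transcripts rose least within the ring. Cct2 is at chr10:117063853-117064002 on the minus strand and Cct7 at chr6:85451355-85451504 on the plus strand, and the capitals mark the Sp1 motif GGGCGG, the CCAAT box, named for its letters, and the motif of ETS factors, CCGGAAG, in either orientation:
Cct2: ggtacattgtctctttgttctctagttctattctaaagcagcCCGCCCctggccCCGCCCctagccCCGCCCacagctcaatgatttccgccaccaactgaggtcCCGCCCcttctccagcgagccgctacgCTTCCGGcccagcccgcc
Cct7: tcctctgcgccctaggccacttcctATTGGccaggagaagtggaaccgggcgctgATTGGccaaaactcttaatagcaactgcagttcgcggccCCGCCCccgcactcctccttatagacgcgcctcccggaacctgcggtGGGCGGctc
An Sp1 motif was in 11 of the 12 windows, at least 1 for each of the 9 genes, against 35.7% of all windows. A CCAAT box was found in 5 of the 12 windows, of 5 genes (37.4% of all windows). An ETS motif was in 5 windows, of 5 genes (8.86%), and the E-box CACGTG in 1, of Hspd1 (7.15%). The ETS motifs of Hspd1 and Hspe1 are the same bases, counted for both genes, and overlap the heat shock element. A match describes letters in these windows and is not a measured binding site.

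Every chaperonin transcript was higher in CML 2wk than in CTRL. All 10 rose by edgeR's quasi-likelihood test (Benjamini-Hochberg adjusted p under 0.05), where 30.6% of all genes tested rose and 29.0% fell, and 0 of the 10 fell. For each of the 10 genes the lowest CML 2wk library was above the highest CTRL library, an order found for 17.0% of all genes tested. The median log2 fold change was 0.07 over all genes tested, and each of the 10 values was above it. Together the 10 genes took up 0.282 to 0.33% of the counts in CTRL and 0.52 to 0.659% in CML 2wk. Without CML 2wk replicate 2, the library with the highest mast cell and stromal markers, all 10 were still called higher. In bulk samples, more cells of a type and more RNA per cell cannot be told apart.

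**Figure D1:**
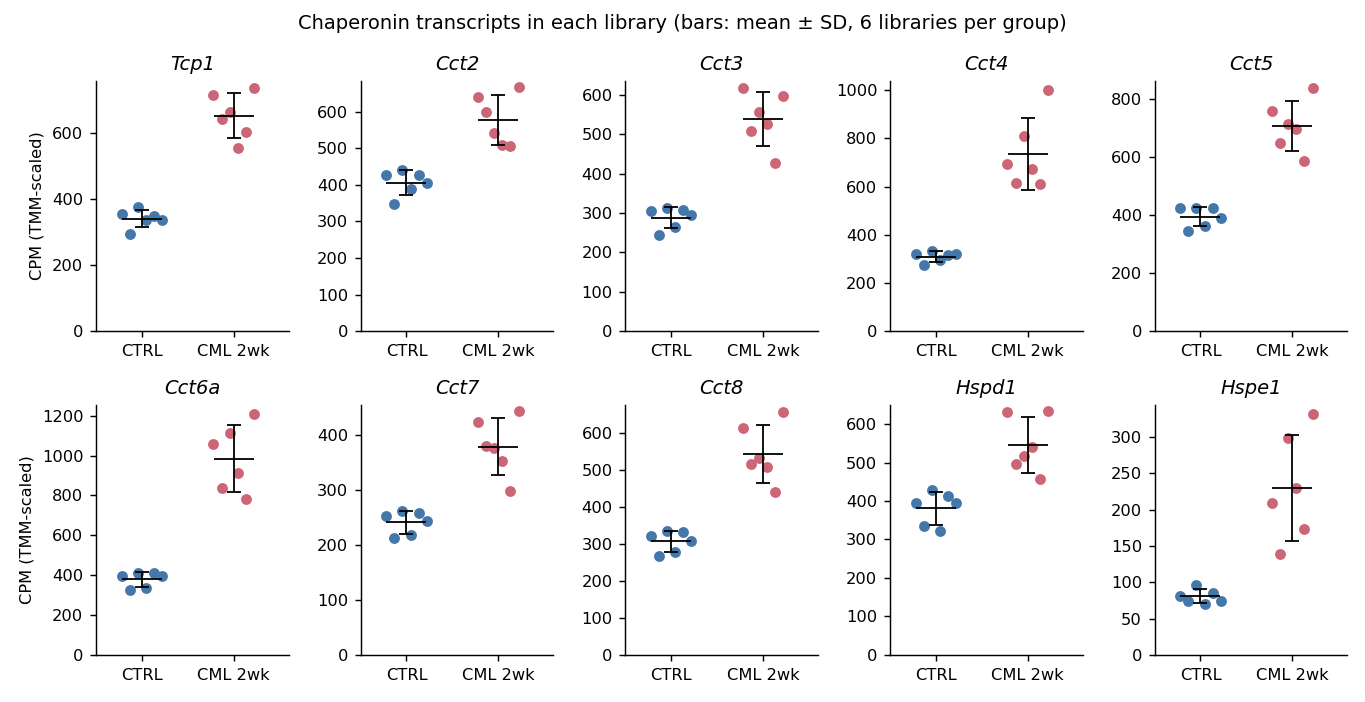
Level of each chaperonin transcript in CPM (TMM-scaled, linear axis from 0) in the 6 CTRL (blue) and 6 CML 2wk (red) libraries; the bars are the mean ± SD. Each panel has its own scale. In every panel all red points lie above all blue points, and relative to their mean the red points spread most widely for Hspe1 (coefficient of variation 31.8%).

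Within TRiC, the largest rise was that of Cct6a, which encodes the zeta subunit. Cct6a was at 326.6, 395.9 and 411.2 CPM (lowest, median and highest library) in CTRL and at 780.3, 986.2 and 1211 CPM in CML 2wk. All CML 2wk libraries were thus clear of the CTRL range by at least 369 CPM. The log2 fold change was 1.38 (SE 0.11, adjusted p = 1.54e-07), a 2.6-fold rise. Cct4, the delta subunit, followed with 275.7, 317.7 and 332.1 CPM in CTRL and 611.4, 683.7 and 1002 CPM in CML 2wk. The highest of these values, in CML 2wk replicate 6, stood above the next highest of 810.2 CPM in replicate 3, and the groups did not overlap. Its log2 fold change was 1.24 (SE 0.112, adjusted p = 4.36e-07).

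Tcp1 (alpha), Cct3 (gamma), Cct5 (epsilon) and Cct8 (theta) rose by intermediate amounts. Tcp1 was at 294.7, 343.3 and 374.8 CPM in CTRL and 553.9, 653.3 and 735.7 CPM in CML 2wk (log2 fold change 0.94, SE 0.0795, adjusted p = 2.61e-07). It had the smallest SE of the 10 genes. Cct3 was at 245.1, 299.7 and 311.4 CPM in CTRL and 427.5, 540.9 and 616 CPM in CML 2wk (log2 fold change 0.90, SE 0.0918, adjusted p = 1.25e-06). Cct5 was at 346.2, 407.1 and 424.5 CPM in CTRL and 588.5, 705.5 and 838 CPM in CML 2wk (log2 fold change 0.84, SE 0.087, adjusted p = 1.47e-06). Neither gene had a CML 2wk library within the CTRL range. Cct8 was at 268.5, 315.9 and 335.2 CPM in CTRL and 440.6, 524.7 and 657.9 CPM in CML 2wk, again without overlap (log2 fold change 0.82, SE 0.0956, adjusted p = 4.2e-06).

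The smallest rises in the ring were those of Cct7 (eta) and Cct2 (beta). Cct7 was at 213, 248.7 and 263.2 CPM in CTRL and 298.1, 379.4 and 444.5 CPM in CML 2wk (log2 fold change 0.65, SE 0.0926, adjusted p = 2.82e-05). The gap between the groups was 34.9 CPM. Cct2 was at 346.7, 415.8 and 440.5 CPM in CTRL and 506.2, 570.4 and 667.8 CPM in CML 2wk, with a gap of 65.8 CPM. Its log2 fold change of 0.51 (SE 0.0854, adjusted p = 0.000131) was a 1.42-fold rise, with a 95% confidence interval of 1.25 to 1.61, which did not reach that of Cct6a (2.21 to 3.06). The difference between genes was not tested as such.

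In the mitochondrial pair the chaperonin and its lid moved by unequal amounts. Hspd1 was at 322.7, 395.5 and 428.5 CPM in CTRL and 456.5, 529.1 and 634.7 CPM in CML 2wk. The gap of 28 CPM between the groups was the narrowest of the 10 genes, and the rise was 0.52 on the log2 scale (SE 0.0973, adjusted p = 0.000342). Hspe1 was at 70.49, 78.34 and 96.38 CPM in CTRL and 139.6, 219.6 and 331.4 CPM in CML 2wk. No CML 2wk library fell into the CTRL range, although the coefficient of variation rose from 11.8% to 31.8%. Its log2 fold change of 1.51 (SE 0.177, adjusted p = 4.48e-06, 2.86-fold) was the largest of the 10 and stood at rank 550 among all genes tested, against rank 5058 for Hspd1.

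**Figure D2:**
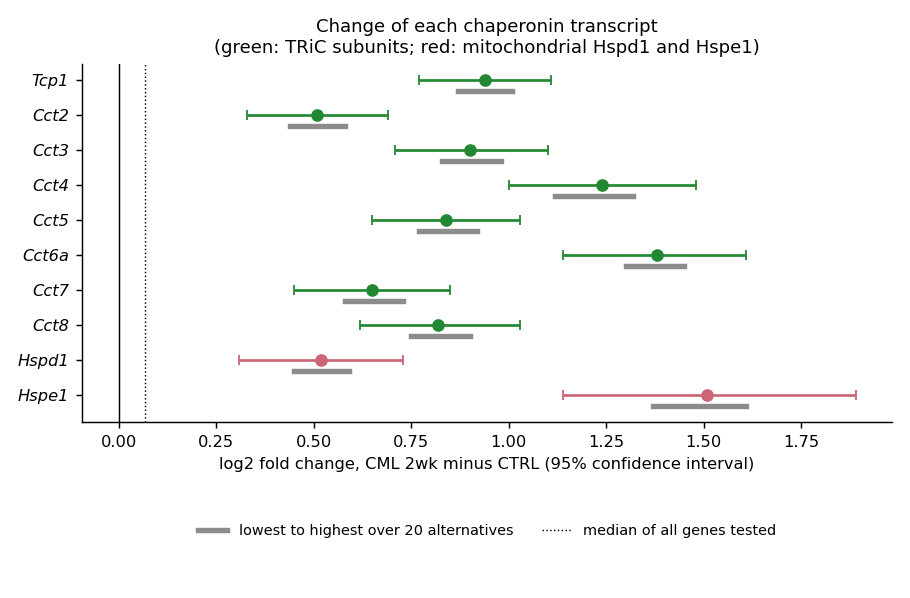
Log2 fold change of each gene, CML 2wk minus CTRL, with its 95% confidence interval (green, TRiC; red, mitochondrial pair); grey bars span the values under 20 alternative settings and the dotted line is the median of all genes tested (0.07). No interval reaches 0, and the values run from 0.51 (Cct2) to 1.51 (Hspe1).

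Reads of the members could in principle be shared with their processed pseudogenes, of which 13 carry a member's name in the annotation. The highest count of any of them was 57 in a library. The counting rule for reads that map to several places is not given in the sources used here.

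Levels of different genes were compared after division by transcript length (CPM per kb of exons of the basic annotated transcripts). In CTRL, Cct5 was highest at 213 ± 18.4 CPM per kb (SD, n = 6), followed by Cct2 at 198 ± 16.7, Hspd1 at 157 ± 17.8 and Cct6a at 154 ± 15.3. Cct8 (128 ± 11.8), Cct3 (127 ± 12.0), Cct4 (125 ± 8.45) and Tcp1 (119 ± 9.34) lay close together, and Hspe1 (104 ± 12.3) and Cct7 (99.1 ± 8.58) were lowest. No neighbours in that order had ranges apart. In CML 2wk the order began with Cct6a (402 ± 68.4) and Cct5 (382 ± 46.6), followed by Hspe1 (297 ± 94.6), Cct4 (296 ± 60.3) and Cct2 (281 ± 33.7). Cct3 (237, range 188 to 271), Tcp1 (228 ± 23.7), Cct8 (227 ± 32.7) and Hspd1 (226 ± 30.1) came next, and Cct7 (156 ± 21.4) was again lowest. Only the range of Cct7 was apart from that of its neighbour there. With these lengths Cct2 moved from the second to the fifth place and Hspe1 from the ninth to the third. With the exons of all annotated transcripts as length, Cct2 moved from the first to the third place and Hspe1 only from the eighth to the seventh, Cct6a led in CML 2wk, and Cct7 was lowest in both groups.

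The 8 TRiC subunits together stood at 1160 ± 98.4 CPM per kb in CTRL and 2210 ± 291 in CML 2wk, with no overlap between libraries. Each subunit occurs once per ring, which does not require equal shares of the transcripts. The transcripts were not at equal shares in either group, and their shares depend on the lengths used. Cct6a held 13.3% ± 0.353 of the summed level in CTRL and 18.1% ± 1.09 in CML 2wk. Cct4 held 10.7% ± 0.271 and 13.3% ± 1.31. Cct2 went the other way, from 17.0% ± 0.285 to 12.8% ± 0.993, as did Cct7, from 8.51% ± 0.112 to 7.05% ± 0.36. For these 4 subunits the libraries of the groups did not overlap, and with the other lengths the means differed in the same directions (Cct6a 14.4 and 19.7%, Cct4 10.1 and 12.6%, Cct2 21.8 and 16.5%, Cct7 4.9 and 4.08%). The shares of Tcp1 (10.3 and 10.4%), Cct3 (10.9 and 10.7%), Cct5 (18.3 and 17.3%) and Cct8 (11.0 and 10.3%) overlapped between the groups. The coefficient of variation over the 8 subunits was 27.7% in CTRL and 30.5% in CML 2wk, which overlapped, and with the other lengths the order of the groups turned (48.3 and 45.9%). The shares are descriptions and were not tested.

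**Figure D3:**
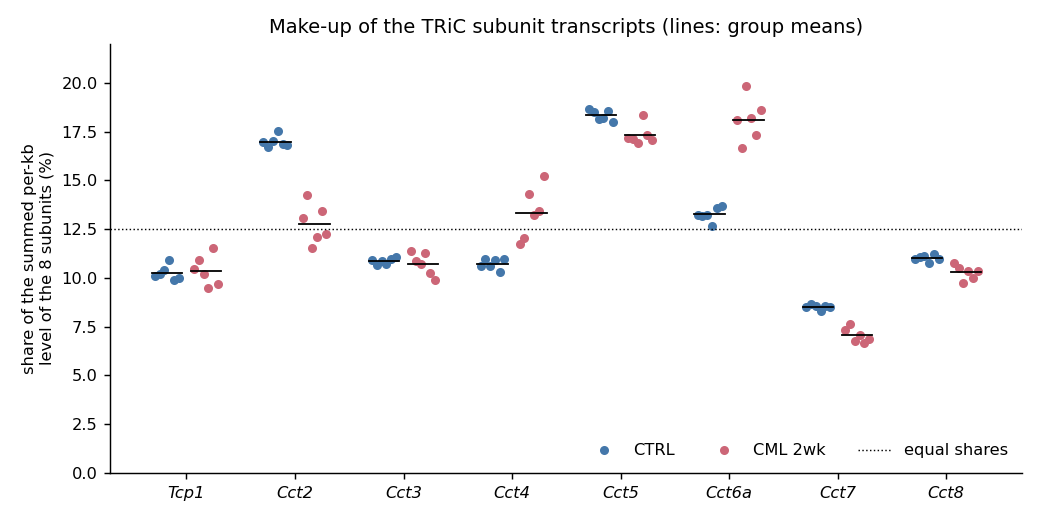
Share of each TRiC subunit in the summed per-kb level of the 8 subunits, in percent, for each CTRL (blue) and CML 2wk (red) library; black lines are group means and the dotted line marks equal shares. Cct2 and Cct7 lie lower and Cct4 and Cct6a higher in CML 2wk without overlap, while the other subunits overlap.

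The level of Hspe1 relative to Hspd1, both per kb, with the basic lengths was 58.7, 66.8 and 70.4% (lowest, median and highest library) in CTRL and 87.9, 126 and 181% in CML 2wk. Every CTRL library thus held less Hspe1 than Hspd1, whereas 5 of the 6 CML 2wk libraries held more, the exception being replicate 2. Which of the pair was higher depended on the lengths. With the exons of all annotated transcripts the ratio was 33.6, 38.2 and 40.3% in CTRL and 50.3, 72.0 and 103% in CML 2wk, where 1 of 6 libraries held more Hspe1. Other lengths multiply the ratio of every library by the same factor. They therefore cannot change the order of the libraries or the log2 difference between the groups. The log2 ratio differed by 0.94 between the group means, by 1.05 without CML 2wk replicate 2 and by 0.84 without replicate 6 of both groups. The mean of the mitochondrial pair was 89.8% ± 4.47 of the mean TRiC subunit in CTRL and 94.2% ± 11.6 in CML 2wk. These values overlapped, so no shift of the pair's mean against TRiC was seen beyond the spread of the libraries. That mean joins Hspd1 and Hspe1, which moved in opposite directions against the mean TRiC subunit. With the basic lengths this subunit mean was 145 CPM per kb in CTRL and 276 in CML 2wk. Hspd1 went from above it (157) to below it (226), and Hspe1 from below it (104) to above it (297). These positions depend on the lengths used and were not tested.

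**Figure D4:**
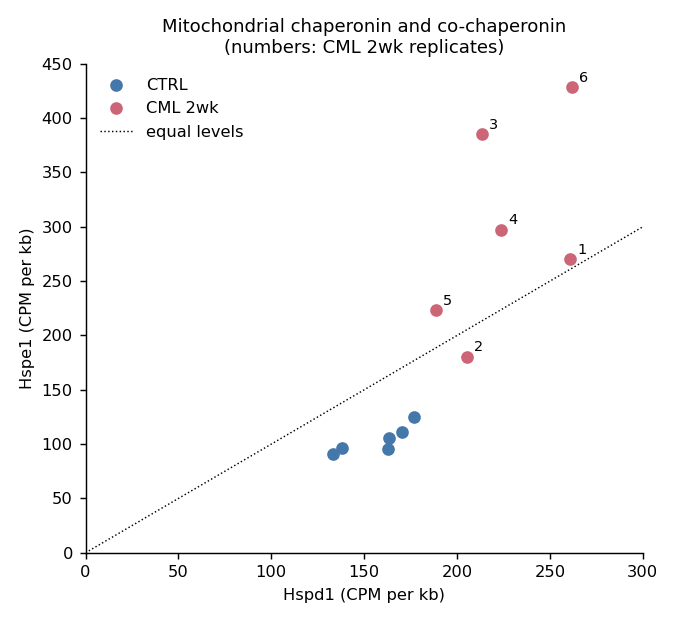
Level of Hspe1 against that of Hspd1, both in CPM per kb, in each CTRL (blue) and CML 2wk (red, numbered by replicate) library; the dotted line marks equal levels. All CTRL libraries lie below the line and 5 of 6 CML 2wk libraries above it with the lengths of the basic transcripts.

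The subunits tended to be high or low in the same libraries. In CTRL, replicate 2 was lowest for all 8 TRiC subunits and replicate 4 for both mitochondrial genes, and replicate 3 was highest for 8 of the 10. In CML 2wk, replicate 6 was highest for 9 of the 10 and replicate 5 lowest for 8. CTRL replicates 2 and 4 had the highest shares of mitochondrially encoded counts in their group, 1.29 and 1.21%, and CML 2wk replicate 6 the lowest TMM factor (0.9275) and the highest sum of neutrophil markers (6530 CPM), and the part of these in the order was not tested. Over the 6 libraries of a group, the median Pearson correlation of log2 CPM among the 28 pairs of TRiC subunits was 0.96 in CTRL (0.81 to 1.0) and 0.84 in CML 2wk (0.54 to 0.97). Hspd1 correlated with the TRiC subunits at a median of 0.93 and 0.85, Hspe1 at 0.72 and 0.59. Hspd1 and Hspe1 correlated at 0.83 in CTRL and 0.57 in CML 2wk. These values share libraries and scaling and are descriptions only.

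Over all 12 libraries, with each group centred on its mean, the genes most like the mean of the TRiC subunits among 8526 candidates of mean log2 CPM of at least 4 were Phb2, a prohibitin of the inner mitochondrial membrane (r = 0.985), Asna1, an ATPase that targets tail-anchored proteins (0.977), Adsl, an enzyme of purine synthesis (0.977), Nans, an enzyme of sialic acid synthesis (0.975) and Odc1, the first enzyme of polyamine synthesis (0.974). Those most like the mean of Hspd1 and Hspe1 were Eef1d, a translation elongation factor (0.981), Mrpl50, a protein of the mitochondrial ribosome (0.974), Nt5c3b (0.971), Hnrnpc, which binds nascent RNA (0.968), and Mettl6 (0.967). All 10 of these genes also rose, by 0.30 (Nans) to 1.08 (Mrpl50) on the log2 scale, where 30.6% of all genes tested rose. They were picked for their likeness to the chaperonin means, and the share of the 8526 candidates that rose is not given here.

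Partners, clients and related systems are given by counts, each to be read beside the shares of all genes tested, of which 30.6% rose and 29.0% fell. Prefoldin hands unfolded actin and tubulin to TRiC. Of its 6 subunits, 5 rose (83.3%) and 0 fell, with a median log2 fold change of 0.79 against 0.07 for all genes. Pfdn4 rose by 1.50 (SE 0.186, adjusted p = 7.56e-06), Vbp1 by 0.88 and Pfdn5 by 0.80, whereas Pfdn2 was at 24.33 ± 1.82 CPM in CTRL and 26.49 ± 5.8 in CML 2wk (adjusted p = 0.44). Of the 9 TRiC modulators and tubulin cofactors, 4 rose (44.4%, and 3 to 6 genes over the alternatives) and 0 fell (median 0.17). The cofactors Tbcb (0.84) and Tbca (0.82), which bind folded tubulin released from TRiC, and the phosducin-like Txndc9 (0.75) rose most. Of 5 divergent relatives of the subunits, the 4 tested (Cct6b, Mkks, Bbs10 and Bbs12) had values of 0.13 to 0.68 and none was called, and Cct6b, a subunit form best known from testis, was at 0.5711 ± 0.191 and 0.9098 ± 0.587 CPM (adjusted p = 0.167). Bbs12 missed the threshold narrowly (0.23, adjusted p = 0.0546).

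Of the 14 actin and tubulin genes tested of 15, which encode the main clients of TRiC, 4 rose (28.6%) and 5 fell (35.7%), with a median of -0.03. Both shares were near those of all genes (30.6 and 29.0%). Tubb5 fell from 2370 ± 206 to 1403 ± 181 CPM (log2 fold change -0.76, adjusted p = 8.43e-06) and Actb from 4561 ± 265 to 2895 ± 449 CPM (-0.66, adjusted p = 5.38e-05). In neither did the groups overlap. Tuba8 fell by 0.74, and Tuba1c (0.49) and Tuba1a (0.32) rose, the latter not called without CTRL replicate 2 (0.28, adjusted p = 0.0557). Tubb2b (1.88) rested on CML 2wk replicate 2, which stood at 5.22 CPM against 0.306 to 2.55 CPM in the other 5 CML 2wk libraries, and was not called without it (1.07, adjusted p = 0.0711). Of 14 WD-repeat and other regulatory clients, 2 rose (14.3%) and 11 fell (78.6%), against 30.6 and 29.0% of all genes (median -0.30). Fzr1, an activator of the anaphase-promoting complex, fell by 0.90, Stat3 by 0.57 and Rptor, a component of mTORC1, by 0.50, while Ccne1 (cyclin E) rose by 0.89 and Ppp2r2d by 0.42.

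Of 32 genes of the cytosolic HSP70 and HSP90 system tested of 33, 10 rose (31.2%) and 7 fell (21.9%), shares near or under those of all genes (30.6 and 29.0%), with a median of -0.01. Hspa8, the constitutive HSP70, rose from 1392 ± 142 to 2408 ± 269 CPM (0.79, adjusted p = 3.42e-06). Of the nucleotide exchange factors of HSP70 in the list, Bag2 (0.75) and Bag1 (0.59) rose, whereas Bag3 (-0.45), Hspbp1 (-0.54) and Hspa4l (-0.49) fell. Bag3 was near the threshold (edgeR, adjusted p = 0.0401) and its groups overlapped. Hspa4 (0.06) and Hsph1 (-0.28) were not called. Hsp90ab1 was at 2520 ± 200 and 2749 ± 572 CPM (0.13, adjusted p = 0.377). Hsf1, the main heat shock factor, fell from 51.2 ± 0.977 to 33.98 ± 2.91 CPM (-0.59, adjusted p = 1.79e-06), with no overlap. The stress-inducible Hspa1a was at 0.8678, 2.298 and 17.29 CPM (lowest, median and highest) in CTRL and at 0.3401, 1.324 and 2.909 CPM in CML 2wk (-2.04, adjusted p = 0.0331). Its groups overlapped, and the call was lost without CTRL replicate 2 or 3 (adjusted p = 0.111 and 0.0865) or without CML 2wk replicate 1, 3, 4 or 5 (0.0503 to 0.0666).

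Hspd1 and Hspe1 work beside a mitochondrial HSP70 system and a set of proteases. Of 16 mitochondrial chaperones and proteases, 11 rose (68.8%) and 2 fell (12.5%), against 30.6 and 29.0% of all genes (median 0.26). The count that rose was 8 without a filter and 9 with the replicate block. Grpel1, the nucleotide exchange factor of mitochondrial HSP70, rose from 37.89 ± 3.57 to 102.2 ± 18.6 CPM (1.43, adjusted p = 1.37e-07), the inner membrane protease Yme1l1 by 1.03 and Dnajc19 by 0.86. Hspa9, mitochondrial HSP70 itself, was at the threshold with overlapping groups (0.29, adjusted p = 0.0486) and was not called without any one of the 6 CTRL libraries or without CML 2wk replicate 1, 2 or 6 (0.19 to 0.30, adjusted p = 0.0584 to 0.129). The proteases Spg7 and Lonp1 fell by 0.45 and 0.26. Of 11 genes of the import machinery, through which Hspd1 and Hspe1 enter, 9 rose (81.8%) and 0 fell (median 0.70), led by Timm23 (1.33), Tomm20 (1.20) and Tomm22 (0.97), whereas Timm44 (-0.02) and Pmpca (-0.04) were not called.

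Of 12 cell cycle genes, 3 rose (25.0%) and 8 fell (66.7%), against 30.6 and 29.0% of all genes (median -0.26). Mki67 fell from 1587 ± 122 to 609 ± 80.7 CPM (-1.38, adjusted p = 4.27e-08), Top2a by 0.73 and Mcm2 by 0.46, whereas Pcna (0.48), Cdk1 (0.39) and Ccnb1 (0.39) rose.

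**Figure D5:**
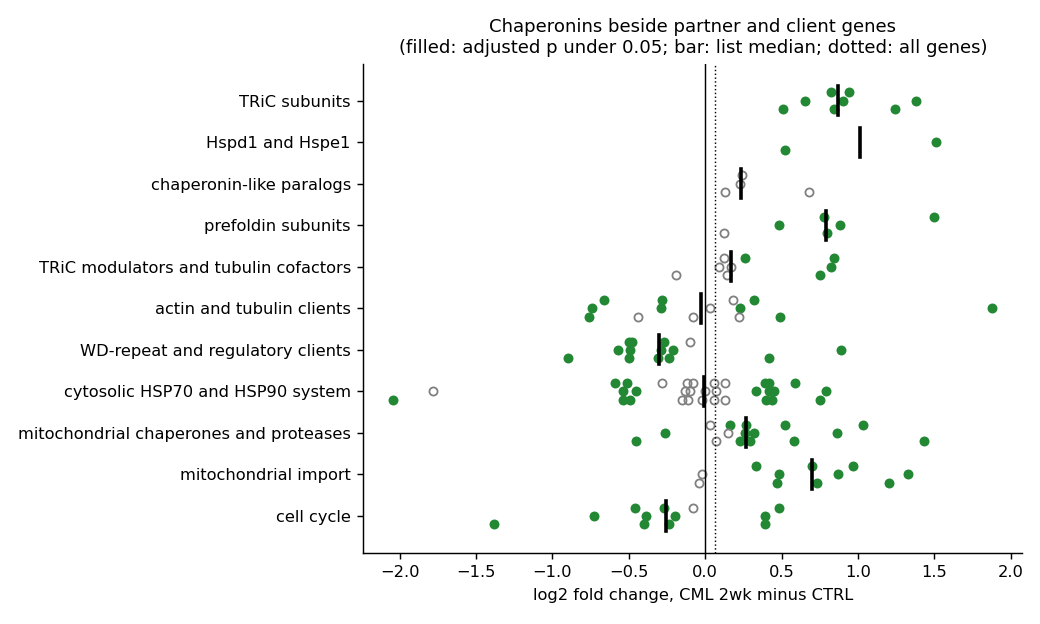
Log2 fold change, CML 2wk minus CTRL, of the TRiC subunits, Hspd1 and Hspe1, and the genes of 9 lists of partners, clients and related systems; filled points have an adjusted p under 0.05, black bars are medians and the dotted line is the median of all genes tested. All 10 chaperonin points are filled and right of 0, prefoldin and import genes lie mostly right, and WD-repeat clients and cell cycle genes lie mostly left of 0.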

How the data were processed

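Donor LSK cells were profiled by bulk RNA-seq in 6 CTRL and 6 CML 2wk libraries, grouped by their labels. The authors deposited raw read counts per Ensembl gene without normalization. The submitters' processing notes list FastQC 0.11.9, fastp 0.23.2, STAR 2.7.10a, featureCounts 2.0.1, DESeq2 1.36.0 and GRCm39 (mm39), whereas the study's methods name Trim Galore!, HISAT2 and a human build; the deposited identifiers are murine. The annotation release, strand setting and treatment of multimapping reads are not given in the sources used here, so overlapping and near-identical genes are uncertain. Identifiers were matched to symbols (52073 of 56748), and 0 entries named no gene.

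Genes were filtered with filterByExpr, scaled with TMM and tested with edgeR 4.0.16 (quasi-likelihood, R 4.3.3) over 18438 genes with Benjamini-Hochberg adjustment at 0.05. CPM values are deposited counts divided by the TMM-scaled library size. Lengths came from GENCODE vM21 (GRCm38), and promoter sequences from RefSeq (GRCm38.p6). Simulated data gave 42 of 100 calls at a log2 change of 0.5, 89 of 100 at 1 and 4 false calls over 18438 genes. The simulation changed only these genes and gave both groups the same dispersion for each gene. The real groups differed in spread and many more genes were called, so these rates need not hold for the real comparison. Libraries differed by more than sampling noise in each pair (chi-square over its degrees of freedom at least 4.072). Libraries with the same replicate number did not deviate together (correlations -0.125 to 0.0679).

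The members and lists were chosen with earlier results of these data known. Named were all 10 members, up to 3 called genes per direction of each list, Cct6b, Hspa9, Hsf1, Actb, Tubb5, Hspa8, Hsp90ab1 and the 5 genes most like each chaperonin. Pfdn2, Mkks, Bbs10, Bbs12, Timm44, Pmpca, Bag3, Hspa4l, Hspa4, Hsph1 and the markers given by name were named after their values were seen. Alternatives were DESeq2 1.42.0, other size factors and filters, the replicate block, other lengths and leaving out libraries. Plots used Python 3.11.15 and matplotlib 3.10.9.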

Additional observations from a re-analysis of the deposited data

How the results depend on the processing

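All 10 chaperonin genes were called higher and 0 lower under each of 20 alternatives (upper-quartile, RLE or no scaling factors, no filter, a stricter filter, DESeq2, the replicate block, each library left out in turn, and replicate 6 of both groups left out). Their largest adjusted p-values were 0.00219 (Hspd1) and 0.00111 (Cct2). The median log2 fold change of the TRiC subunits ran from 0.80 to 0.95 and that of the mitochondrial pair from 0.92 to 1.09. With the replicate block, 10 of the 10 genes were called higher, and 4786 genes rose and 5189 fell in all; the numbers did not pair the libraries. Of the list genes, 42 to 54 rose and 28 to 36 fell. The log2 ratio of mitochondrial to TRiC mean level, 0.06 higher in CML 2wk, turned to -0.19 without division by length and, with the lengths of all annotated transcripts, chosen after seeing the data, to -0.06; which length fits these cells was not tested. Values without CML 2wk replicate 2 and without replicate 6 were chosen for the ratios after seeing the data. Called higher were 1 or 2 chaperonin-like paralogs in place of 0 under 5 alternatives (2 without CML 2wk replicate 2), and 2 actin and tubulin genes in place of 4 without a filter or with the replicate block; 1 TRiC modulator was called lower in place of 0 under 3 alternatives, among them without CML 2wk replicates 1 and 2. Upper-quartile factors moved the median of all genes to 0.14 and the calls to 6352 higher and 4752 lower. Labelled sex, cell composition and BCR::ABL1 induction differ together between the groups and cannot be told apart. The sex-linked counts did not follow the sex labels, as given above. Intervals and shares cover transcripts and not protein.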
